A study of Mus musculus with 6 samples.

Results

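The 10 genes described here encode transcription factors of the immediate early response: the FOS genes Fos, Fosb, Fosl1 and Fosl2, the JUN genes Jun, Junb and Jund, the related factor gene Atf3, and the early growth response genes Egr1 and Egr2. They were taken by name from the 21959 genes of the deposited table, and all 10 were among the 10060 genes tested. Gene positions are those of GENCODE M21 on GRCm38. The libraries hold RNA of cells labelled as mouse neutrophils from tumours of Hepa1-6, a mouse hepatoma line. The 3 libraries labelled GPR35 negative and the 3 labelled GPR35 positive differ in GPR35, a G protein-coupled receptor by which the cells were divided. The labels used here do not give mouse strain, age, tumour site, how the cells were sorted or whether replicates were separate animals. The p-values therefore cover the spread among these 6 libraries alone, which may be technical.

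AP-1 is a family of dimeric transcription factors in which a JUN protein pairs with itself or with a FOS or ATF protein through a leucine zipper and binds a short palindromic DNA element. FOS, JUN and EGR genes are transcribed within minutes of a growth factor, cytokine or stress signal, mostly through MAP kinases acting on serum response factor and its partners, and their RNAs are short-lived. In myeloid cells these factors take part in cytokine and protease gene expression, EGR1 and EGR2 also act in macrophage differentiation, and the same genes respond to the handling of tissue.

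The 4 most abundant factors, Junb, Atf3, Fos and Jun, differed between the groups by at most 1.21-fold in mean level, and the scarcest in GPR35-negative libraries, Egr2, by 5.98-fold. Junb stood at rank 13 of the 10060 genes by mean FPKM in each group, Atf3 at 51 in the GPR35-negative libraries, against 63 in the GPR35-positive ones, and Fos at 78 and 110. FPKM are reads scaled by gene length and by library depth, so these levels can be set against each other. In GPR35-negative libraries the order from high to low was Junb, Atf3, Fos, Jun, Egr1, Fosb, Jund, Fosl1, Fosl2 and Egr2, and of these neighbours only the replicates of Jund and Fosl1 overlapped. In GPR35-positive libraries Egr2 stood beside Fosb, whose replicates it overlapped, and was followed by Jund, Fosl2 and Fosl1. Of the 10 genes, 3 rose (Egr2, Fosl2 and Junb) and 3 fell (Fosb, Fosl1 and Fos) at an adjusted p below 0.05, where 68.8% of all genes tested passed, 23.3% higher and 45.5% lower in GPR35-positive libraries. The members' median log2 fold change was −0.06 against −0.19 for all genes tested. The groups did not overlap for 6 of the 10 factors, the same 3 higher and 3 lower, against 72.5% of all genes (24.3% higher, 48.2% lower). With median-of-ratios scaling 3 rose and 2 fell, against 57.5% of all genes (27.3% higher, 30.1% lower). These shares lie near those of all genes and are not a result about the family.

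**Figure D1:**
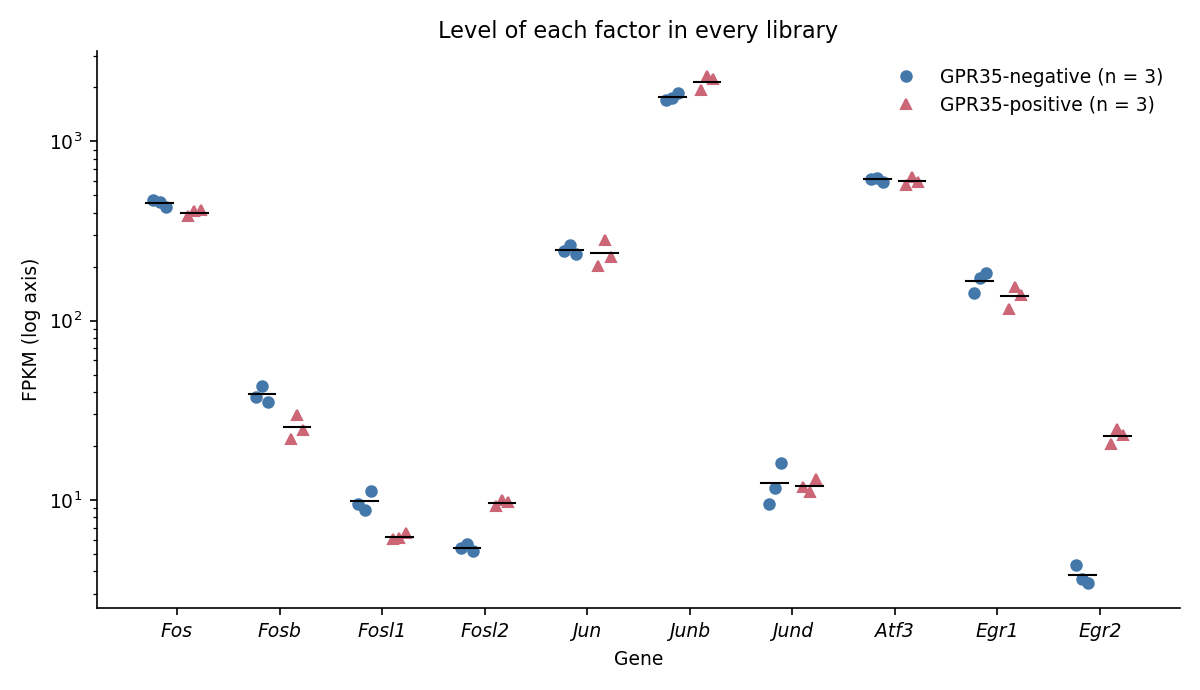
Level of the 10 factors in FPKM on a log axis, with 1 point for each of the 3 GPR35-negative (circles) and 3 GPR35-positive (triangles) libraries and a line at each group mean. Egr2 moves from 3.46 to 4.35 FPKM up to 20.4 to 24.8 FPKM, while Atf3 and Jun overlap between the groups.

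The libraries held 15742745 to 18314104 reads assigned to genes, a depth recovered from the spacing of low values. Gpr35 itself was at 1.57 ± 0.398 FPKM in the GPR35-negative libraries, against 20.2 ± 1.89 FPKM in the GPR35-positive ones (SD, n = 3 each). The labelled cell type did not account for all RNA: 19 hepatocyte and hepatoma markers summed to 25566.5 to 26982 FPKM in the GPR35-negative libraries, against 17106 to 17536 FPKM in the GPR35-positive ones, where 20 mature neutrophil markers summed to 930 to 1191 and 10249 to 11221 FPKM. The 10 pan-leukocyte genes summed to 175 to 238 and 2122 to 2185 FPKM, 10.4-fold higher, and 18 macrophage and monocyte markers were 10.3-fold higher in sum, against a ratio of 0.659 for the hepatocyte markers. Of these 4 lists, all tested leukocyte, neutrophil and macrophage genes rose, and 14 of 18 tested hepatocyte genes fell. Ccr2, Clec4f, Timd4 and Vsig4 of the macrophage list did not reach the filter of 1 FPKM in 3 libraries. Adgre1 and others below 1 FPKM in every GPR35-negative library could be tested only if high in GPR35-positive ones. Their rise was thus set by the filter. The defining neutrophil markers Ly6g and S100a8 were at 0.947 ± 0.316 and 517 ± 46.8 FPKM in the first group and 5.02 ± 0.673 and 5262 ± 406 FPKM in the second, the macrophage markers Adgre1 and C1qb at 0.540 ± 0.167 and 8.61 ± 1.84 against 18.2 ± 1.55 and 307 ± 23.7 FPKM, and albumin (Alb) at 1068 ± 218 against 605 ± 53.2 FPKM. Summed dendritic cell markers were 9.16-fold and eosinophil and mast cell markers 4.76-fold higher, with 1 of the latter listed at 0 in every library. Only 5 of 11 and 5 of 15 of these genes reached the filter. Most of the dendritic sum was H2-Ab1, at 86.5 and 730 FPKM, and Cd83, at 12.8 and 246 FPKM. Flt3 and Siglech were near 0, and Zbtb46 was at 0.942 and 0.850 FPKM. Among the eosinophil and mast cell markers, Ear2 was at 0.675 and 23.6 FPKM and Prg2 at 0.527 and 0.316 FPKM. Neutrophil granule and precursor genes were 2.58-fold and fibroblast markers 1.92-fold higher in sum. Among the granule and precursor genes tested, Prtn3 fell, Lcn2 did not pass and the rest rose. Des fell among the fibroblast markers tested and the others rose, Acta2 most, from 2.21 to 13.8 FPKM. The ratios were 0.755 for lymphocyte and 0.957 for endothelial markers. Of the endothelial markers tested, Pecam1 and Eng rose while Esam and Egfl7 fell. In such bulk samples fewer cells of a type and less RNA per cell cannot be told apart, and the part of these markers in the differences given below was not tested. Dividing by median-of-ratios size factors in place of the deposited scaling moved the median over all genes, as a log2 fold change, from −0.19 to −0.07, and the calls from 2342 higher and 4575 lower to 2751 higher and 3030 lower.

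Among the FOS genes, the most abundant one barely differed between the groups, Fosb and Fosl1 were lower in GPR35-positive libraries and Fosl2 was higher. Fos (ENSMUSG00000021250, chr12:85473890-85477273, forward strand), the founding partner of JUN, was at 473, 458 and 428 FPKM in the GPR35-negative libraries, against 383, 407 and 413 FPKM in the GPR35-positive ones. All GPR35-positive values lay below all GPR35-negative ones, by a small margin. Fos fell by 0.17 on the log2 scale (SE 0.07, adjusted p = 0.0427). With median-of-ratios scaling it was −0.03 (adjusted p = 0.701), and the call held in 4 of 12 alternatives. It also ended with no filter on low genes (0.0800), without GPR35-negative replicate 1 (0.112) or 2 (0.126) and without GPR35-positive replicate 1 (0.124), 2 (0.0703) or 3 (0.0727).

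Fosb (ENSMUSG00000003545, chr7:19302696-19310051, reverse strand), a close relative of Fos induced by the same signals, was at 37.6, 43.4 and 35.3 FPKM in GPR35-negative libraries and at 21.8, 29.7 and 24.7 FPKM in GPR35-positive ones. The groups did not overlap, and the mean was 1.53-fold lower in GPR35-positive libraries. Its log2 fold change came to −0.60 (SE 0.11, adjusted p = 0.00111), and −0.46 with median-of-ratios scaling. Fosl1 (ENSMUSG00000024912, chr19:5447547-5455946, forward strand), which encodes FRA-1, a FOS protein without the long activation domain of FOS, was at 9.50, 8.77 and 11.2 FPKM in the GPR35-negative libraries, against 6.03, 6.11 and 6.53 FPKM in the GPR35-positive ones. Its groups were also separate, at −0.58 on the log2 scale (SE 0.10, adjusted p = 0.000477). The 3′ end of Fosl1 overlaps Ccdc85b on the other strand, which went from 11.5 ± 0.961 to 6.42 ± 0.722 FPKM (SD, n = 3 each), and since no label says whether the counting used strand, their reads cannot be told apart where they overlap. The ratios of mean FPKM, 0.656 for Fosb and 0.634 for Fosl1, stood beside 0.659 for the summed hepatocyte markers.

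Fosl2 (ENSMUSG00000029135, chr5:32135801-32157842, forward strand), which encodes FRA-2, the other short FOS protein, went the opposite way. It was at 5.37, 5.65 and 5.15 FPKM in the GPR35-negative libraries, against 9.21, 9.98 and 9.70 FPKM in the GPR35-positive ones, from 785 to 926 and from 1528 to 1719 reads. Replicates lay close together within each group and far from the other group. The level was 1.79-fold higher in GPR35-positive libraries, or 0.73 on the log2 scale (SE 0.08, adjusted p = 2.27e-05), and the call held in each of 12 alternatives. The summed FPKM of the 4 FOS genes was 507 ± 24.1 in the GPR35-negative libraries, against 442 ± 19.2 in the GPR35-positive ones (SD, n = 3 each), of which Fos made up 89.3% and 90.7%. Within that sum Fosl2 took 1.06% ± 0.0368 and 2.18% ± 0.0368, and Fosl1 1.95% ± 0.339 and 1.41% ± 0.0494.

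The promoters of Fos and Fosb are shown because both genes are textbook immediate early genes and were measured in every library at high or moderate level. The windows searched are the 250 bases before the start in RefSeq's promoter sequences for GRCm38.p6. They are printed 5′ to 3′, at chr12:85473640-85473889 on the forward strand for Fos and at chr7:19310052-19310295 on the reverse strand for Fosb, whose last 6 bases lie in an annotated exon and are left off. Capitals mark the letters TGACG, the core of the CREB and ATF element, and GCGNGGGCG, the element bound by EGR proteins.
Fos: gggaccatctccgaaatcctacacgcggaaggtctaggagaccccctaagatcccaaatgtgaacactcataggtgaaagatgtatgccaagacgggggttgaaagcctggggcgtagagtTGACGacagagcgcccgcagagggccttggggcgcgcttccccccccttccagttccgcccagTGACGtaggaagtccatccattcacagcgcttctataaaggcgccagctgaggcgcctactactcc
Fosb: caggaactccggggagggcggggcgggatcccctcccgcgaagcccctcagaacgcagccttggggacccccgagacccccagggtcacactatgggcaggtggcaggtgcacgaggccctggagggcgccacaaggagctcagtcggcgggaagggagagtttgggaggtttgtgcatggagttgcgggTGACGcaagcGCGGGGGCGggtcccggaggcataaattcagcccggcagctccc
Counting the base before the start as −1, TGACG begins at −129 and −66 in Fos and at −60 in Fosb, where GCGNGGGCG follows at −50. On either strand TGACG was present in 17.8% and GCGNGGGCG in 4.7% of 32851 promoter windows of that length. The 8 members with a promoter sequence in RefSeq's table had 12 windows, and only Egr2 had more than 1. A member counts if any of its windows matches. Of these members, 5 held TGACG outside a longer element, 2 (Fosb and Fosl2) held GCGNGGGCG and 1 (Jun) held TGACNTCA. The AP-1 element TGANTCA was held by 0 members and by 6.75% of all windows. The shares are per window, and that of TGACG includes matches inside TGACNTCA, so the counts are not on the same footing. The whole Fosl2 window and the last 7 bases of the Atf3 window, which hold that gene's TGACG, lie in annotated exons. The Fosl2 and Atf3 windows, and every Egr2 window with a match, lie inside the bounds of the GENCODE gene. The matches of these genes are thus not in sequence upstream of the GENCODE gene. These matches describe letters in the windows and not binding.

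Of the JUN genes, Junb was the dominant transcript and was higher in GPR35-positive libraries, while Jun and Jund did not pass. Junb (ENSMUSG00000052837, chr8:84974484-84978718, reverse strand) encodes a JUN protein that activates less strongly than JUN and can restrain it. Its level was 1711, 1756 and 1858 FPKM in the GPR35-negative libraries, against 1930, 2314 and 2220 FPKM in the GPR35-positive ones, resting on 67294 to 93557 reads. Junb overlaps the end of Prdx2, which was at 83.7 ± 5.97 and 64.4 ± 2.91 FPKM (SD, n = 3 each). Every GPR35-positive library was above every GPR35-negative one, and the lowest of the former, replicate 1, lay close to the highest of the latter. The mean was 1.21-fold higher (log2 fold change 0.28, SE 0.08, adjusted p = 0.0144). The call ended without GPR35-negative replicate 2 (adjusted p = 0.0531), if low genes were not filtered (0.0618), and without GPR35-positive replicate 2 (0.0599) or 3 (0.0575), and it was firmer with median-of-ratios scaling (log2 fold change 0.42, adjusted p = 0.00253).

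Jun (ENSMUSG00000052684, chr4:95049034-95052222, reverse strand), the partner that lets FOS proteins bind DNA, was at 246, 264 and 236 FPKM in the GPR35-negative libraries, against 203, 283 and 228 FPKM in the GPR35-positive ones. GPR35-positive replicates 1 and 2 were the lowest and the highest of all 6 libraries. The log2 fold change was −0.07 with a 95% interval of −0.32 to 0.17 (adjusted p = 0.558). Jund (ENSMUSG00000071076, chr8:70698949-70700616, forward strand), the JUN gene usually expressed without a stimulus, was at 9.50, 11.7 and 16.0 FPKM and at 11.7, 11.1 and 13.004 FPKM. Its GPR35-negative replicates spread more widely than the GPR35-positive ones and enclosed them all (log2 fold change −0.03, 95% interval −0.36 to 0.31, adjusted p = 0.884). The Jund values alone among the members did not come out as whole reads with the exon length used here, so its level is less certain than its comparison between libraries. Jun and Jund each overlap an antisense gene, Junos and Gm11175, whose reads cannot be told apart from theirs without strand. Junb, Jun and Jund together summed to 2036 ± 72.2 and 2405 ± 237 FPKM, and Junb took 69.8% ± 1.70 and 75.7% ± 0.457 of the sum of all 7 FOS and JUN genes (SD, n = 3 each).

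Atf3 (ENSMUSG00000026628, chr1:191170296-191218039, reverse strand), a stress-induced factor of the same bZIP class that often represses its targets, was second in level to Junb and did not pass. It was at 618, 627 and 593 FPKM in the GPR35-negative libraries, against 574, 631 and 590 FPKM in the GPR35-positive ones. The highest and the lowest of the 6 values were both GPR35-positive. The log2 fold change was −0.04 with a 95% interval of −0.19 to 0.11 (adjusted p = 0.651), the narrowest interval of the 10 genes.

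The EGR genes diverged most. Egr1 (ENSMUSG00000038418, chr18:34859823-34864984, forward strand), the zinc finger factor that most signals to FOS also induce, was at 143, 172 and 184 FPKM in the GPR35-negative libraries, against 117, 154 and 139 FPKM in the GPR35-positive ones. The groups overlapped through GPR35-negative replicate 1 and GPR35-positive replicate 2. Its log2 fold change came to −0.28 (SE 0.12, adjusted p = 0.0504). It passed in 4 of 12 alternatives, among them without GPR35-negative replicate 1 (adjusted p = 0.0143), without GPR35-positive replicate 2 (0.0208) and in limma-voom run on recovered reads (0.0391). It was −0.14 (adjusted p = 0.340) with median-of-ratios scaling.

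Egr2 (ENSMUSG00000037868, chr10:67535475-67542188, forward strand), which binds nearly the same DNA element and is known from myeloid differentiation and from the restraint of lymphocyte activation, was at 4.35, 3.60 and 3.46 FPKM in the GPR35-negative libraries, against 20.4, 24.8 and 23.0 FPKM in the GPR35-positive ones. These values rest on 185 to 255 and on 1189 to 1430 reads. No library of either group came near the other group. The level was 5.98-fold higher in GPR35-positive libraries, or 2.31 on the log2 scale (SE 0.10, adjusted p = 1.51e-08), and 317 of the 10060 genes had a larger log2 fold change. The call held in each of 12 alternatives, at log2 fold changes between 2.24 and 2.58. Egr3, another member of the family, was below the filter at 0.0763 ± 0.0312 and 0.497 ± 0.108 FPKM (SD, n = 3 each), and Egr4 was listed at 0 in all 6 libraries. In the same libraries the summed pan-leukocyte genes were 10.4-fold and the macrophage and monocyte markers 10.3-fold higher.

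The Egr2 promoter is shown because Egr2 had the largest difference of the 10 genes. It is the 250 bases at chr10:67537619-67537868 on the forward strand of GRCm38.p6, before a RefSeq start, with TGACG or its reverse complement and a CArG box, the serum response factor element, in capitals. This window lies inside the GENCODE gene, whose first base is 67535475, and not upstream of it.
Egr2: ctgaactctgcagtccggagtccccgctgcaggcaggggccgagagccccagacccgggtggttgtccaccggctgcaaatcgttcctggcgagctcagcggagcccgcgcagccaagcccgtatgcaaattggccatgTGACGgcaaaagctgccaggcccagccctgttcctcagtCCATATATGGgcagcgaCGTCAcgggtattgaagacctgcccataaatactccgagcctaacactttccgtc
The CArG box, CCATATATGG, runs from −72 to −63, between TGACG matches that begin at −111 and, on the other strand, at −55. A CArG box was present in 1.47% of the 32851 windows, and Egr2 was the 1 member of 8 to hold it in such a window. That share is per window, and Egr2 alone of the 8 had more than 1 window searched. The absence of these letters from the other windows says nothing about sites farther from the start.

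**Figure D2:**
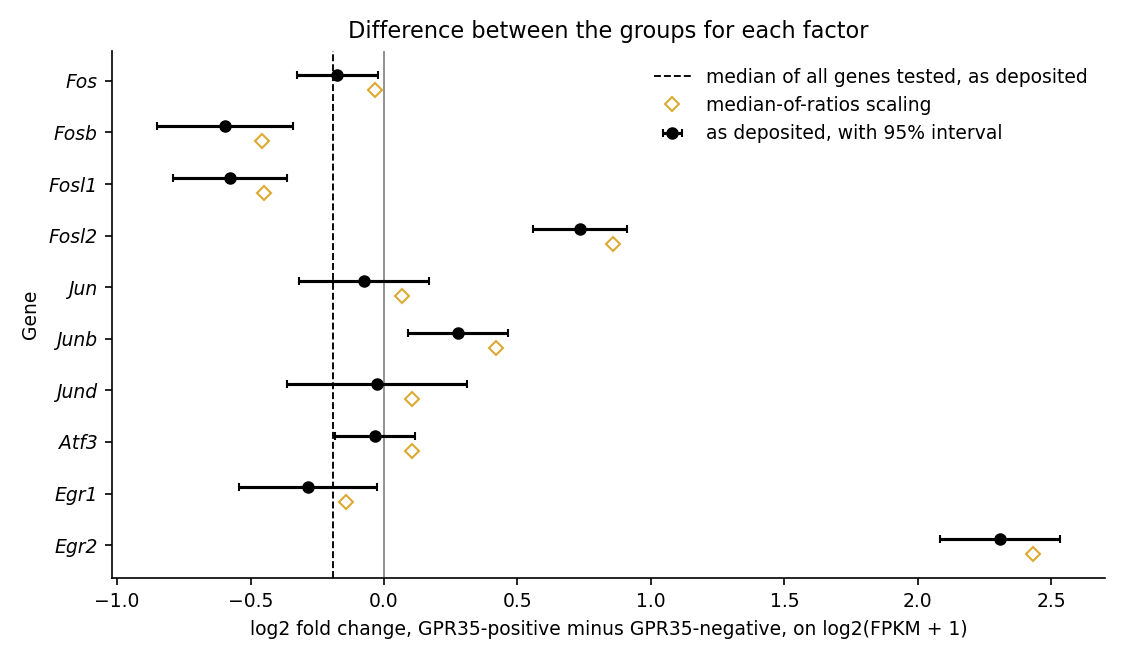
log2 fold change of each factor, GPR35-positive minus GPR35-negative on the log2(FPKM + 1) scale, with its 95% interval from limma (black), and the same after median-of-ratios scaling (open diamonds). The dashed line is the median of all genes tested, −0.19: Egr2 and Fosl2 lie to its right, Fosb and Fosl1 to its left, and the interval of Fos includes it.

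Ratios between members within a library do not move with the scaling of libraries, and 8 were compared. With 3 libraries against 3, the smallest p of the exact two-sided permutation test is 0.1, so none could pass, and the 5 ratios whose groups did not overlap all had p = 0.1 (0.16 adjusted over the 8). The Fosl2 to Fosl1 ratio was 0.566, 0.644 and 0.461 in the GPR35-negative libraries, against 1.53, 1.63 and 1.49 in the GPR35-positive ones. By FPKM, the scarcer of the FRA genes in the first group was thus the more abundant one in the second, by a mean change of 2.81-fold in the ratio. In reads not scaled by exon length, 9680 bases for Fosl2 and 2033 for Fosl1, Fosl2 exceeded Fosl1 in every library. The reads of Fosl1 also cannot be told apart from those of Ccdc85b where the genes overlap. The Egr1 to Egr2 ratio went from 32.9, 47.9 and 53.2 to 5.71, 6.22 and 6.05, 7.31-fold lower. The Fosl2 to Fos ratio was 2.02-fold higher, Fos to Fosb 1.36-fold higher and Junb to Jun 1.28-fold higher in GPR35-positive libraries.

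The remaining 3 ratios overlapped between the groups. Fos to Jun was 1.92, 1.74 and 1.81 in the GPR35-negative libraries, against 1.89, 1.44 and 1.81 in the GPR35-positive ones (exact permutation p = 0.7, 0.8 adjusted). Atf3 to Jun ranged from 2.38 to 2.52 and from 2.23 to 2.83 (exact permutation p = 0.8). Junb to Jund ranged from 116 to 180 and from 165 to 209 (exact permutation p = 0.3, 0.4 adjusted). These p-values do not show that the ratios were equal.

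**Figure D3:**
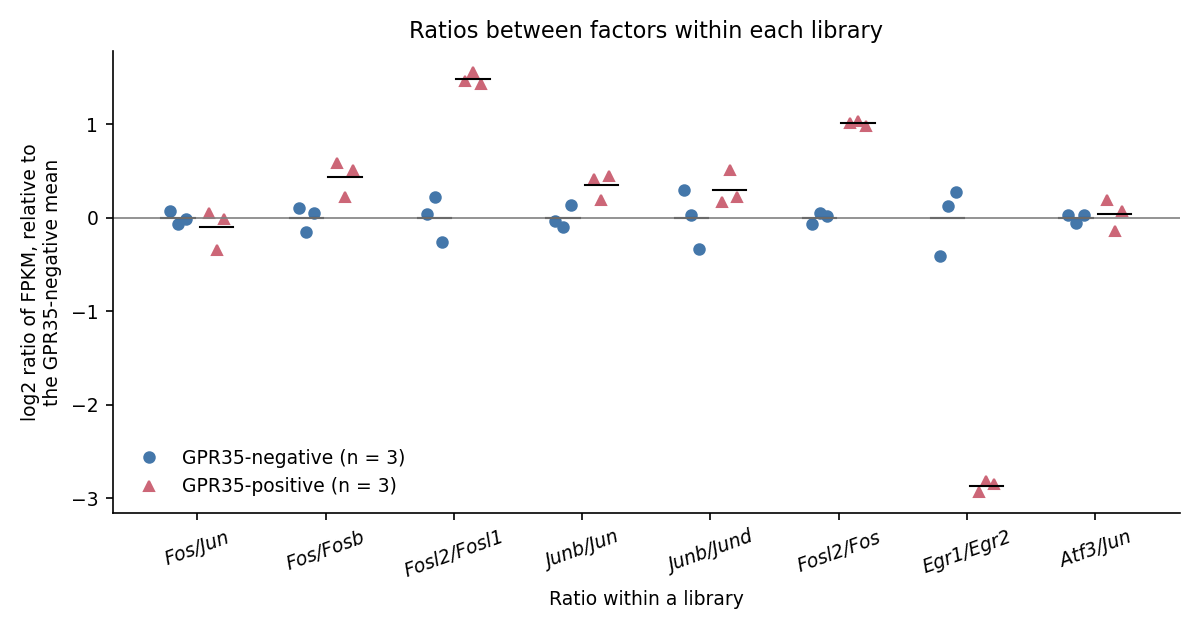
log2 ratio of the FPKM of 2 factors within each library, relative to the mean of the 3 GPR35-negative libraries (circles), with the 3 GPR35-positive libraries as triangles and lines at the group means. The triangles of Fosl2/Fosl1 and Fosl2/Fos lie above the circles and those of Egr1/Egr2 below them, while Fos/Jun, Junb/Jund and Atf3/Jun overlap.

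Many of the factors ordered the replicates of a group alike. GPR35-positive replicate 1 held the lowest of the 3 GPR35-positive values for 9 of the 10 factors, and GPR35-positive replicate 2 the highest for 7. The exception to the former was Jund, lowest in replicate 2. In the GPR35-negative group replicate 3 was lowest for 6 factors and highest for the other 4. The differences were small beside that of Egr2: for Jun, the GPR35-positive library values spanned 203 to 283 FPKM.

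Of 22 other bZIP factors tested, which pair with or compete with AP-1 proteins, 12 rose and 3, Nfe2l1, Atf7 and Atf5, fell, where 23.3% of all genes rose and 45.5% fell, and the list's median log2 fold change was 0.34 against −0.19 for all genes tested. Batf, which pairs with JUN proteins in leukocytes, rose from 3.29 ± 0.734 to 32.6 ± 0.895 FPKM, and its relative Batf3 from 0.361 ± 0.108 to 5.73 ± 0.449 FPKM (SD, n = 3 per group, adjusted p = 5.35e-09 and 7.49e-09). Cebpd, a C/EBP factor of acute inflammation, rose 4.93-fold. Batf3 also stands among the dendritic cell markers used here. Atf5, at 2.12 ± 0.421 and 1.52 ± 0.235 FPKM, was lost as a call with median-of-ratios scaling (adjusted p = 0.110), with no filter (0.101), with limma-voom (0.0643) and without GPR35-negative replicate 1 (0.131) or 2 (0.0822) and GPR35-positive replicate 2 (0.0725) or 3 (0.133). Jdp2, whose product dimerises with JUN, was below the filter at 0.159 ± 0.0673 and 1.07 ± 0.153 FPKM. Of the EGR corepressor genes, Nab1 rose from 11.8 ± 0.836 to 14.3 ± 0.302 FPKM (adjusted p = 0.0133), and Nab2, itself an EGR target, was at 2.86 ± 0.275 and 2.69 ± 0.372 FPKM (adjusted p = 0.560).

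Of 23 tested genes upstream of the factors, for serum response factor, its partners, CREB factors and MAP kinases, 7 rose and 9 fell, and the list's median log2 fold change was −0.07. Over all genes 68.8% passed, 23.3% higher and 45.5% lower, so the count lies near the background. With median-of-ratios scaling 9 rose and 4 fell, where 27.3% of all genes rose and 30.1% fell. Srf, which encodes serum response factor, fell from 3.81 ± 0.995 to 2.16 ± 0.431 FPKM (adjusted p = 0.0068), and Mapk3, which encodes ERK1, from 36.7 ± 0.824 to 24.8 ± 0.881 FPKM (adjusted p = 5.54e-05). Mapkapk2, a kinase that acts below p38, Braf, a kinase at the head of the ERK cascade, and Crem, a CREB relative, rose 2.60-fold, 3.33-fold and 2.37-fold. RNA levels of kinases do not measure their activity.

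Of 16 tested genes that shut the response down, 6 rose and 7 fell, and the list's median log2 fold change was −0.12. Over all genes 68.8% passed (23.3% higher, 45.5% lower), and nothing particular to the list is read from its count. Zfp36, whose protein speeds the decay of AU-rich RNAs, rose from 32.1 ± 0.835 to 57.5 ± 1.56 FPKM, and the antiproliferative gene Btg1 from 101 ± 30.0 to 451 ± 75.8 FPKM (SD, n = 3 per group, adjusted p = 1.59e-06 and 2.29e-06). Spry2, an inhibitor of receptor tyrosine kinase signalling, rose 4.14-fold. The MAP kinase phosphatase gene Dusp4 fell from 249 ± 29.7 to 139 ± 16.6 FPKM, and Dusp6, which acts on ERK, from 334 ± 18.3 to 235 ± 11.8 FPKM, while Dusp1 rose from 1716 ± 70.3 to 2106 ± 62.2 FPKM. Dusp1 was thus close in level to Junb in both groups.

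Of 29 other immediate early genes tested, 11 rose and 9 fell, and the list's median log2 fold change was 0.02. The number called lies at the background of 68.8% (23.3% higher, 45.5% lower). With median-of-ratios scaling 13 rose and 6 fell, where 57.5% of all genes passed. The orphan nuclear receptor genes Nr4a1 and Nr4a3 rose from 81.2 ± 2.39 to 214 ± 13.2 FPKM and from 0.477 ± 0.0547 to 4.04 ± 0.242 FPKM (adjusted p = 3.89e-08 and 1.81e-08). Gadd45b, a stress sensor that NF-kappaB induces, rose 4.84-fold and Ier5, a gene of the stress response, 2.68-fold. Ccn1, a matrix protein gene of adherent cells, fell from 621 ± 24.4 to 371 ± 7.63 FPKM, Myc from 336 ± 23.9 to 211 ± 6.58 FPKM, and Errfi1, a feedback inhibitor of the EGF receptor, from 764 ± 70.6 to 458 ± 30.8 FPKM. Ier2 was at 754 ± 149 and 720 ± 50.6 FPKM (adjusted p = 0.718). Klf6 stood at 1050 ± 64.9 and 1109 ± 12.9 FPKM (adjusted p = 0.322), and passed with median-of-ratios scaling (0.0328).

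Of 19 tested textbook AP-1 targets, 14 rose and 4 fell, where 23.3% of all genes rose and 45.5% fell, and the list's median log2 fold change was 1.73. Mmp12 and Mmp13, which encode secreted matrix proteases, rose from 2.36 ± 0.326 to 83.1 ± 10.03 FPKM and from 2.46 ± 0.511 to 73.7 ± 3.03 FPKM, and the cytokine genes Tnf and Cxcl2 rose 11.0-fold and 8.88-fold. Among those that fell were Ccnd1, which encodes cyclin D1, and the metallothionein genes Mt1 and Mt2, with log2 fold changes of −0.70, −0.46 and −0.47. Beside them, the summed pan-leukocyte genes were 10.4-fold higher in the same libraries. Mmp9, a gelatinase gene that rose 8.70-fold, is also 1 of the 20 neutrophil markers. Of 15 tested EGR targets, 6 rose and 6 fell, or 7 and 4 with median-of-ratios scaling, where 68.8% and 57.5% of all genes passed. Csf1, the macrophage growth factor gene, rose from 5.27 ± 0.488 to 39.0 ± 2.89 FPKM and Icam1, an adhesion molecule gene, 2.52-fold, while Pdgfa, a growth factor gene, fell from 44.3 ± 0.700 to 25.6 ± 0.784 FPKM (SD, n = 3 per group, adjusted p = 2.89e-06). Cd44, an adhesion receptor gene on both lists, rose 2.53-fold.

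Heat shock genes, which respond to cell stress and to tissue dissociation as the FOS and JUN genes do, also gave a count near the background. Of 12 tested, 4 rose and 5 fell, where 23.3% of all genes rose and 45.5% fell. The 4 that rose were Hspa1a, Hspa1b, Hspb1 and Hsp90aa1. Most of the list's summed FPKM came from Hspa5, Hspa8 and Hsp90ab1, and that sum was 0.822 times as high in GPR35-positive libraries. Hspa1a rose from 8.43 ± 1.24 to 50.5 ± 6.23 FPKM (SD, n = 3 per group, adjusted p = 2.63e-08), though reads of Hspa1a and its near-identical copy Hspa1b, at 0.285 ± 0.0335 and 1.41 ± 0.0259 FPKM, could have been split in the counting. Hsp90ab1, a constitutive chaperone gene, fell from 1238 ± 74.7 to 801 ± 50.4 FPKM and Hsph1, a chaperone partner gene, from 44.1 ± 1.45 to 29.7 ± 1.21 FPKM.

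**Figure D4:**
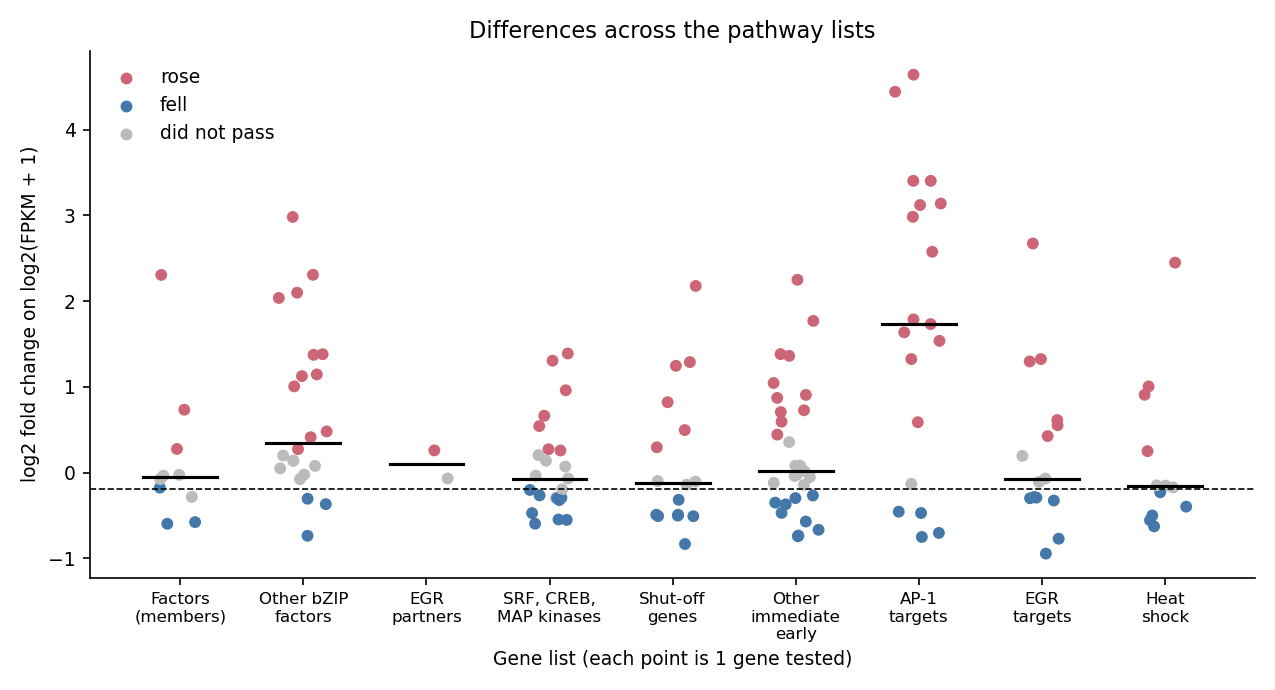
log2 fold change on the log2(FPKM + 1) scale of every gene tested in the 10 factors and in 8 other lists, coloured by whether it rose, fell or did not pass, with a bar at each list's median and a dashed line at the median of all genes, −0.19. The AP-1 targets have the highest bar, 1.73. The bar of the 10 factors is at −0.06, with Egr2 alone of them above 2 and the others from −0.60 to 0.73.

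For each factor the other gene, predicted genes and pseudogenes left out, with the most similar profile over the 6 libraries was found by the root mean square difference of centred log2(FPKM + 1) values. For Egr2 it was Nfam1, at a difference of 0.047, which went from 0.718 ± 0.204 to 7.84 ± 0.678 FPKM (SD, n = 3 each), and 26 genes lay within 0.1. Egr2 itself went from 3.80 ± 0.481 to 22.7 ± 2.21 FPKM, a smaller fold. The likeness thus holds on the log2(FPKM + 1) scale, which understates changes of low genes. The nearest to Fosl2 was Arl8b (0.022), to Fosb Vdac1 (0.027), to Fosl1 Fam57a (0.036) and to Junb Pias4 (0.034). The nearest to Fos was Cnot10 (0.023), to Jun Ykt6 (0.029), to Jund Nsmce4a (0.052), to Atf3 Kif23 (0.020) and to Egr1 Naif1 (0.030). As many as 1357 genes lay within 0.1 of Fos and 940 of Atf3, so their profiles were common ones, and that of Jund, with 14, was the least shared.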

How the data were processed

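The deposited table gives FPKM per gene, as the authors made it, per the file headers. RNA extraction used Trizol, and the library kit was NEBNext Ultra II RNA, per the labels' protocols. The submitters' processing notes list, with no roles, HTSeq (0.9.1), DESeq (1.38.3), HISAT2 (2.1.0) and fastp (0.22.0), and a human build although the IDs are mouse Ensembl IDs. No label names the annotation. GENCODE M21 (GRCm38) supplied symbols, positions and exon lengths and held 21851 of 21959 IDs. With those lengths 97.7% of values above 0, and 54 of 60 member values, were whole reads within 0.02.

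The filter kept genes reaching 1 FPKM in 3 libraries or more. A gene below 1 FPKM in every library of 1 group was tested only if it reached that level throughout the other. The direction of such genes, among them Batf3, Nr4a3 and Hspa1b, was therefore set by the filter. limma-trend (limma 3.58.1, R 4.3.3) compared the groups on log2(FPKM + 1) with no covariate, two-sided, with Benjamini-Hochberg adjustment over all 10060 genes and calls at an adjusted p below 0.05. Log2 fold changes are on that scale and understate changes of low genes, and every other fold is a quotient of group means (geometric means for ratios between members). The script was tested on simulated data. The alternatives were a pseudocount of 0.1, no filter and a stricter one, median-of-ratios scaling, limma-voom on recovered reads, a replicate block and leaving out each library. Ratios between members were compared by exact permutation (scipy 1.17.1, numpy 2.4.6, pandas 2.3.3, Python 3.11.15), and plots drawn with matplotlib 3.10.9.

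The members, lists and tests were chosen with earlier results of these data known. The rule named all 10 members, up to 4 genes with the smallest p in each list, 5 defining markers and the nearest profile to each member. The other genes named were picked after their values were seen. Ddit3 matched more than 1 ID and was not used. Some genes of the lists are counted but not reported here by name.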

Additional observations from a re-analysis of the deposited data

How the results depend on the processing

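The calls for Egr2, Fosl2, Fosb and Fosl1 held in each of the 12 alternatives, with log2 fold changes of 2.24 to 2.58, 0.71 to 0.86, −0.71 to −0.46 and −0.65 to −0.45. Fos passed in 4 of 12, Junb in 8 and Egr1 in 4, while Jun, Jund and Atf3 passed in 0 and changed sign with median-of-ratios scaling, to 0.07, 0.10 and 0.11. With no filter Fos had an adjusted p of 0.0800, and with the replicate block 0.0610; the cause was not tested. The number of members called ranged from 4 to 7, with 7 under limma-voom and 4 with no filter and without GPR35-negative replicate 2 or GPR35-positive replicate 3. Of 2 EGR partner genes tested, 1 passed, and with no filter, which also tests Egr3, 2 did. Over all genes, limma-voom called 6963 and the alternatives ranged from 5781 to 7822. With the replicate block 6998 genes were called against 6917 and 6 members still passed, and Egr1 had an adjusted p of 0.00795 in place of Fos. The labels do not say whether replicate numbers pair the libraries. Deviations from the group means correlated at −0.00177, 0.400 and −0.0642 for numbers 1, 2 and 3. For libraries of unequal number the correlations ran from −0.373 to 0.248. Such correlations cannot settle whether the libraries were paired. None of the 56 alternative values of the ratios moved by more than the larger SD between replicates. Leaving out 1 of 3 libraries cannot move a group mean that far. Only the values with a pseudocount of 0.1 could therefore have moved by more. Depth limits the scarce members: Fosl1 had 210 reads in GPR35-positive replicate 1, with a 95% Poisson interval of 183 to 240 for counting error only.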
